A study of Mus musculus with 48 samples.

Results

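The enzymes of the methionine cycle and of transsulfuration were followed in the liver and colon of C57/BL6 mice aged 12 weeks. The set held 10 genes, *Bhmt*, *Mtr*, *Mtrr*, *Mat1a*, *Mat2a*, *Gnmt*, *Pemt*, *Ahcy*, *Cbs* and *Cth*, out of 18434 named genes on the array. It was made of every probe whose accession led to one of these symbols, which gave 13 of 41174 probes, with 3 for *Mtrr*, 2 for *Pemt* and 1 for each other gene. Where a gene had several probes, the one with the highest mean signal stood for it. In each group name the first letter is the diet of the dam through pregnancy and suckling and the second letter is the diet of the pup from weaning onwards. Diet H was supplemented with selenium and folate, above recommended levels, and diet L was marginally deficient in both. HH mice thus never met diet L, LL mice met no other, HL mice met it after weaning only and LH mice through the dam only. Per the methods, both diets were high in fat and the offspring were male. RNA from 48 samples was hybridised to Agilent 2-colour arrays, the mouse in Cy3 and a common reference in Cy5, and each level below is a log2 ratio of mouse over reference.

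The methionine cycle makes and recycles the methyl donor of the cell. Methionine adenosyltransferases turn methionine into S-adenosylmethionine (SAM), methyltransferases pass its methyl group on and leave S-adenosylhomocysteine, and a hydrolase splits that product into homocysteine. Homocysteine is then either methylated back to methionine, with folate or betaine as the methyl source, or drained into cysteine by transsulfuration. The liver is known as the main site of this traffic, and folate supply enters it directly through methionine synthase.

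Each tissue had 24 arrays on 6 slides of its own, and every slide carried 1 array of each diet group. The labels gave 2 HH liver arrays the same animal, and their deviations from the group mean correlated at r = 0.805 over all probes, against at most 0.261 for any other pair of HH livers. They were averaged, leaving 5 HH livers and 6 mice in each other group. For the 10 enzymes these 2 arrays differed by 0.0044 (*Mat2a*) to 0.24 (*Mtrr*). Nothing in the labels says whether mice of a group shared a litter. No animal label was shared between the tissues, although the paper describes 6 animals per group with liver and colon both excised. Whether a liver and a colon came from the same mouse is thus unknown, and the fits treated them as separate mice. Spots above background in Cy3 made up 55.1 to 66.0% on liver arrays and 66.8 to 73.7% on colon arrays. The brightest probe of every enzyme was well above background on all 48 arrays, and none was saturated. Of the less bright probes, 2 for *Mtrr* fell short of it on some arrays. The brightest probes of *Mtr* and *Mtrr* were dim, at a mean log2 Cy3 signal of 7.84 and 7.75. Those of the other enzymes lay at 11.63 (*Pemt*) or above. Whether low signal narrowed the ratios of *Mtr* and *Mtrr* was not tested. The tissue labels fitted their markers. All 6 hepatocyte markers measured were higher in liver and all 8 colon epithelial markers were higher in colon. *Alb*, the plasma protein albumin, lay at 0.80 in liver and -4.25 in colon, and *Cdx2*, an intestinal transcription factor, at -4.52 and 1.55. The mean over the 4 adipocyte markers spanned -2.02 to 1.80 among livers and -0.95 to 3.38 among colons. That over the 3 pancreas acinar markers measured spanned -3.50 to 1.18 among livers and -3.385 to -2.68 among colons. The 4 lymphoid markers spanned -0.23 to 0.42 among livers and -0.54 to 2.24 among colons. The share of other tissue in single samples was not tested. *Xist*, a transcript of the inactive X chromosome, lay over 1 log2 unit above its tissue median on 2 liver and 6 colon arrays. On 1 of these liver arrays and 3 of these colon arrays the Y-linked *Eif2s3y* was at least 4.13 log2 units below its tissue median, which goes against male offspring. Values without these 8 arrays are given where they changed a result. The study's methods call the reference pooled intestine and liver RNA, whereas the deposited description names RNA of a pregnant mouse and foetus. It was the same on every array, so its level cancels from a difference between samples. Its effect through background correction and loess was not tested.

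RefSeq promoters of GRCm38.p6, which run from 250 bases before to 50 after a start site, were on hand for 8 of the 10 genes, all but *Mat1a* and *Cth*. The 4 below are shown since, among these 8, their genes mark the ends and the middle of the tissue difference: *Gnmt* and *Bhmt* were far higher in liver, *Mtr* did not pass the test, and *Mat2a* was higher in colon. Capitals mark CG dinucleotides, which read the same on both strands.

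The sequences are printed 5′ to 3′ on the strand of the gene.
Gnmt (chr17:46729116-46729415, minus strand): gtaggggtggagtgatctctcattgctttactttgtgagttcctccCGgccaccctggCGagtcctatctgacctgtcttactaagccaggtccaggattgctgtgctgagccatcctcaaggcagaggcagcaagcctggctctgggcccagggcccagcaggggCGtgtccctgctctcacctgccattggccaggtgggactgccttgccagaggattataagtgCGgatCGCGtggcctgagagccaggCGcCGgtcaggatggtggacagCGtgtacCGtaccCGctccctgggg
Bhmt (chr13:93637709-93638008, minus strand): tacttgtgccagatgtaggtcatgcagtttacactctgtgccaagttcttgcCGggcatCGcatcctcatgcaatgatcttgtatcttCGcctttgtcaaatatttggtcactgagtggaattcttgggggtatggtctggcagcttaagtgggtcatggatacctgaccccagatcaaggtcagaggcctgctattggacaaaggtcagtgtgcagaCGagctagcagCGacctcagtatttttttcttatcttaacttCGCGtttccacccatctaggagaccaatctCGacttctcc
Mtr (chr13:12258064-12258363, minus strand): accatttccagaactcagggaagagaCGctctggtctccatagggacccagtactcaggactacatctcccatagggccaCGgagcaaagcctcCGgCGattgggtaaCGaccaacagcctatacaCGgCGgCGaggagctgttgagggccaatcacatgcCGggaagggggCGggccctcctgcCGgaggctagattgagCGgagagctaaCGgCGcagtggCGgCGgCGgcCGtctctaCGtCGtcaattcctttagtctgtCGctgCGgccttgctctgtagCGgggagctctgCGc
Mat2a (chr6:72439507-72439806, minus strand): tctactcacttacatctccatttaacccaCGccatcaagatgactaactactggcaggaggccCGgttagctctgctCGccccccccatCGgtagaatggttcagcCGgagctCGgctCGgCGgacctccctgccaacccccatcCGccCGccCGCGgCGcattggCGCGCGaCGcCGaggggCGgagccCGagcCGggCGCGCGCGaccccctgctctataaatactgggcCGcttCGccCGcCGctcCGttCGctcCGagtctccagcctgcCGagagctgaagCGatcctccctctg

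The *Mat2a* promoter held 34 CG dinucleotides, the *Mtr* promoter 24, the *Gnmt* promoter 11 and the *Bhmt* promoter 8. Over all 32851 promoters of this length the median was 7, and 94.6% held at least 1. The 2 promoters of *Mtrr*, a gene called higher in liver just past the threshold, held 39 and 37. The remaining members, all higher in liver, held 22 (*Cbs*), 13 (*Ahcy*) and 2 and 3 (both *Pemt* promoters). TATAAA, searched on both strands, was found in the promoter of *Mat2a* and in no other promoter of these genes, against 13.6% of all promoters. These counts describe the windows and were not tested against expression.

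Taking both tissues together, 9 of the 10 enzymes differed between liver and colon, 8 of them higher in liver and *Mat2a* higher in colon. Calls needed a fold change over 1.5 and a limma FDR under 0.05 over all probes. At these thresholds 41.3% of all named genes were called, 18.6% higher in liver and 22.7% higher in colon, and 30.4% of all probes, 14.6% and 15.7%. These shares are those of the main fit, with 6023 probes called higher in liver and 6474 in colon. Median centring in place of loess gave 13992 and 10231, and the scanner software's processed signals gave 9779 and 10496. The median difference of the 10 enzymes was 3.25 log2 units, against 0.014 over all named genes. For 8 of the 10 enzymes every mouse of one tissue lay above every mouse of the other, which held for 32.0% of all named genes, 14.2% with liver on top and 17.7% with colon on top. In bulk tissue, fewer cells of a type and less RNA per cell cannot be told apart. Tissue also coincided with slide and with scan day, so these cannot be told apart either. The intervals of tissue differences below are those of the main fit and do not cover shifts between processing settings. They also take no account of any liver and colon that came from the same mouse.

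**Figure D1:**
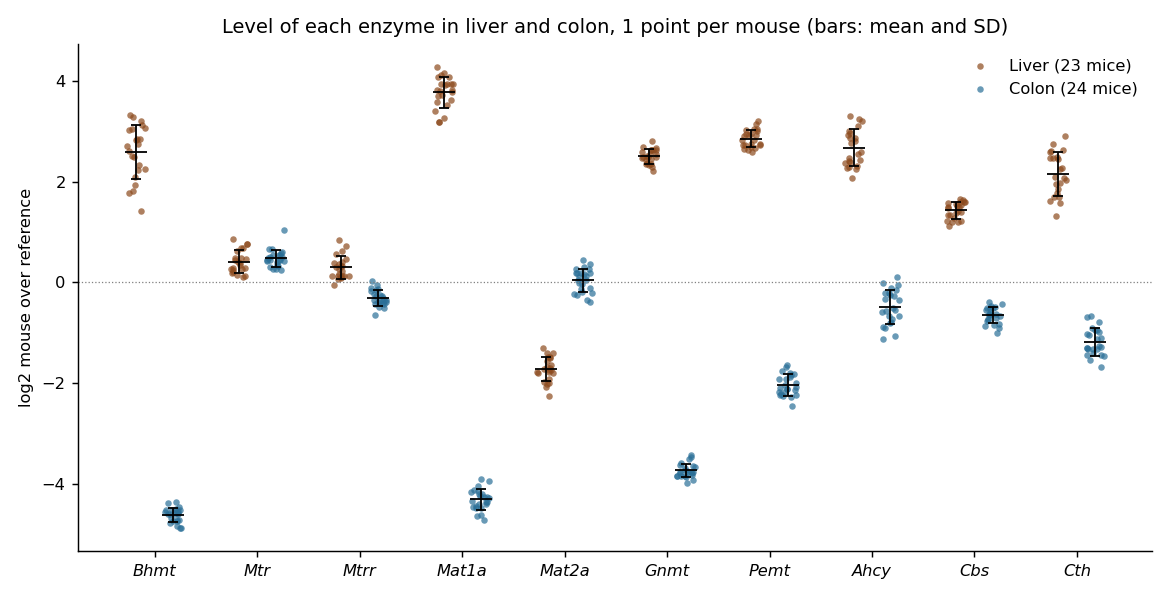
Level of each enzyme in every mouse, as log2 mouse over reference, with liver (23 mice) in brown and colon (24 mice) in blue. Bars give the mean and SD. The 2 tissues stand clear of each other for 8 enzymes, overlap at the edges for *Mtrr* and cover the same range for *Mtr*, and *Mat2a* is the gene whose colon points lie above its liver points.

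The 2 genes for SAM synthesis went opposite ways. *Mat1a* encodes the adenosyltransferase of the adult liver. Its liver levels ran from 3.19 through a median of 3.82 to 4.28, and its colon levels from -4.71 through -4.31 to -3.91. Every liver lay above every colon, and the difference was 8.10 log2 units (SE 0.077, limma adjusted p = 7.37e-51), a 273-fold ratio with a 95% interval of 246 to 304. *Mat2a* encodes the catalytic subunit used by most other tissues. It ran from -2.25 through -1.73 to -1.30 in liver and from -0.39 through 0.074 to 0.44 in colon. Here every colon lay above every liver, by 1.77 log2 units (SE 0.067, limma adjusted p = 2.92e-27), or 3.41-fold with an interval of 3.11 to 3.74. *Mat2b*, the regulatory partner of *Mat2a*, was higher in colon too, with a liver minus colon difference of -0.76 (SE 0.045).

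The routes back from homocysteine to methionine split. *Bhmt*, which takes its methyl group from betaine, ran from 1.41 through 2.72 to 3.33 in liver and from -4.88 through -4.60 to -4.36 in colon. The difference was 7.21 log2 units (SE 0.11, limma adjusted p = 4.40e-42), or 148-fold with an interval of 126 to 173. Its close relative *Bhmt2* differed by 6.54 (SE 0.11), and whether the probe of one gene also bound RNA of the other was not tested. *Mtr*, methionine synthase, which uses methylfolate and cobalamin, did not pass the test. Its levels, from a dim probe, ran from 0.11 through 0.39 to 0.87 in liver and from 0.25 through 0.45 to 1.04 in colon. Liver minus colon was -0.069, with an interval of -0.18 to 0.046 that holds no 1.5-fold difference (limma adjusted p = 0.289), and the scanner software's processed signals turned its sign, to 0.0071. *Mtrr*, the reductase that restores spent methionine synthase, ran from -0.053 through 0.27 to 0.84 in liver and from -0.64 through -0.34 to 0.026 in colon. The tissues overlapped at their edges. Its difference of 0.60 (SE 0.056, limma adjusted p = 2.93e-13) was 1.52-fold, just past the threshold, and its less bright probes gave 0.24 and 0.12, both under 1.5-fold. The *Mtrr* call was also lost without LH liver replicate 3 (0.58), LL liver replicate 3 (0.57) or HH colon replicate 3 (0.58), and with the deposited ratios, without background correction or without its repair (0.55 to 0.57). Under median centring, which moved the median of all probes by -0.22 and the share of calls higher in liver from 48.2 to 57.8%, it was 0.30. Processed signals raised it to 0.98.

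The methyltransferases and the hydrolase after them were all liver-rich. *Gnmt*, which methylates glycine and disposes of surplus SAM, ran from 2.21 through 2.502 to 2.82 in liver and from -3.99 through -3.76 to -3.42 in colon. The difference of 6.25 log2 units (SE 0.041, limma adjusted p = 2.08e-56) was 76.1-fold, with an interval of 71.9 to 80.7. *Pemt*, which builds phosphatidylcholine by methylating phosphatidylethanolamine, ran from 2.58 through 2.84 to 3.21 in liver and from -2.45 through -2.09 to -1.63 in colon. It differed by 4.89 (SE 0.060), or 29.7-fold, and its second probe by 4.62 (SE 0.043). *Ahcy*, which hydrolyses S-adenosylhomocysteine, ran from 2.08 through 2.60 to 3.32 in liver and from -1.13 through -0.52 to 0.12 in colon. It differed by 3.16 (SE 0.10), or 8.91-fold with an interval of 7.72 to 10.3. For all 3 genes no liver overlapped any colon.

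Both transsulfuration enzymes were higher in liver. *Cbs*, which joins homocysteine to serine, ran from 1.13 through 1.49 to 1.65 in liver and from -0.99 through -0.64 to -0.40 in colon. The difference was 2.08 log2 units (SE 0.049), or 4.24-fold with an interval of 3.96 to 4.54. Over other settings it fell as low as 1.61 log2 units, which is outside this interval. *Cth*, which releases cysteine from cystathionine and also cleaves its selenium analogue, ran from 1.32 through 2.09 to 2.91 in liver and from -1.69 through -1.28 to -0.66 in colon. It differed by 3.34 (SE 0.11), or 10.13-fold with an interval of 8.75 to 11.7. The ranges of the tissues were apart for both genes.

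**Figure D2:**
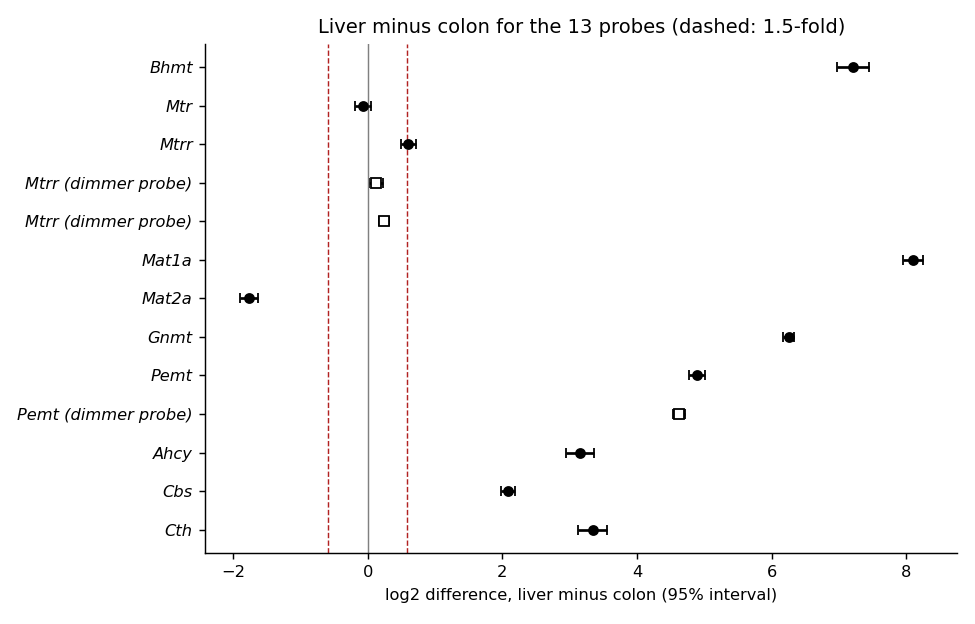
Liver minus colon in log2 units for all 13 probes, with 95% intervals from limma. Filled circles are the probe that stands for each gene, open squares the less bright probes, and dashed lines mark 1.5-fold. *Mat1a*, *Bhmt* and *Gnmt* lie past 6, *Mtr* lies on 0, *Mat2a* is the one point past the line on the colon side, and both less bright *Mtrr* probes fall inside the lines.

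Neighbouring pathways leaned to the liver less evenly, and the genes named from them here were picked as examples after their values were seen. Of 10 methyltransferases of small molecules 8 were higher in liver and 0 in colon, with a median difference of 2.17. *Gamt*, which makes creatine and is a main user of SAM, differed by 4.15 (SE 0.049). Among 11 genes of choline and betaine use 8 were higher in liver and 1 in colon, with a median of 1.502. *Dmgdh* and *Sardh*, which strip the methyl groups left from betaine and sarcosine, differed by 7.495 (SE 0.083) and 4.81 (SE 0.053), while the choline transporter *Slc44a1* was higher in colon, at -0.998 (SE 0.048). In the folate cycle 9 of 17 measured genes were higher in liver and 3 in colon, with a median of 1.32. Liver-rich members included *Ftcd* at 6.75 (SE 0.086) and *Aldh1l1* at 4.92 (SE 0.081), which handle formyl and formimino groups. The 3 on the colon side were *Mthfd1l* at -2.45 (SE 0.084) and *Mthfd2* at -1.09 (SE 0.067), both mitochondrial, and the thymidylate synthase *Tyms* at -1.05 (SE 0.054). Of 14 genes of cysteine and sulfur use 8 were higher in liver, led by the cysteine dioxygenase *Cdo1* at 4.45 (SE 0.11), and 4 in colon, the sulfide and sulfate genes *Sqor*, *Ethe1*, *Papss1* and *Papss2*. Methionine salvage with polyamine synthesis split 6 to 4 out of 13, and cobalamin handling 5 to 1 out of 9. At the same thresholds 18.6% and 22.7% of named genes were called in the 2 directions, and these lists were chosen with earlier results of the data known.

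By diet, no enzyme passed the thresholds in any comparison of either tissue in these fits, and neither did any other probe (0 called, 0% in each). The paper, at these thresholds, reports liver genes that differed for LH, HL and LL against HH and for LL against LH. It reports none in colon, and changed methyl metabolism pathways in liver by a gene set method not run here. It gives 6 animals per group, whereas 2 HH liver arrays of one animal were averaged here. The reason for the difference was not tested. Over the 6 pairwise comparisons the liver differences of the 10 enzymes lay between -0.26 and 0.40 log2 units and the colon differences between -0.28 and 0.16. Comparisons with HH share the same HH mice. The question behind them was whether the diet of the dam, that of the pup or both left a mark on expression.

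For LH against HH in the liver, where diet L reached the mice through the dam, 0 of the 10 enzymes had an unadjusted limma p under 0.05, while 12.0% of all probes did. The lowest belonged to *Gnmt* and *Ahcy*. *Gnmt* was 2.63, 2.68, 2.5, 2.54 and 2.82 in the 5 HH livers and 2.64, 2.52, 2.21, 2.44, 2.35 and 2.60 in the 6 LH livers. Of these, 3 LH livers lay below every HH liver and the others were within the HH range. The difference was -0.18 (SE 0.087, 95% interval -0.36 to 0.0041, limma adjusted p = 0.429), and -0.36 by Cy3 alone. *Ahcy* was 2.44, 2.37, 2.81, 2.27 and 2.30 in HH and 2.41, 2.98, 2.47, 2.86, 3.10 and 3.21 in LH. Here 4 LH livers lay above every HH liver. The difference was 0.40 (SE 0.20, interval -0.021 to 0.83, limma adjusted p = 0.443), an exact two-sided permutation test of *Ahcy* alone gave p = 0.0498, and 9 further such tests, 1 for each other enzyme, gave 0.0606 or more. Within slides LH exceeded HH on 4 of 6 slides for *Ahcy* and on 2 of 6 for *Gnmt*, where 2 of the slides carry the same HH animal, so that 5 HH mice stand behind these counts. *Mtrr* was 0.13, -0.053, 0.12, 0.27 and 0.13 in HH and 0.40, 0.14, 0.72, 0.47, 0.072 and 0.33 in LH. Again 4 LH livers lay above every HH liver, and LH exceeded HH on 5 of 6 slides. The difference was 0.24 (SE 0.13, interval -0.026 to 0.50, limma adjusted p = 0.468), but 0.022 and 0.0028 by its less bright probes, 0.13 under median centring and 0.40 with processed signals. With slide as a replicate block the *Mtrr* difference was 0.21 (SE 0.075, adjusted p = 0.200), with an unadjusted p of 0.0110, which made 1 of 10 enzymes with a p under 0.05 beside 14.8% of all probes in that fit, and no enzyme was called. Among cell markers in the same comparison, 1 of 6 hepatocyte markers, *Cyp2e1*, which is also 1 of 8 perivenous markers, gave 0.83 (SE 0.29), 2 of 4 lymphoid markers, *Ptprc* and *Ms4a1*, gave -0.61 (SE 0.19) and -0.52 (SE 0.17), and 1 of 3 erythroid markers, *Hba-a1*, gave -0.50 (SE 0.14), all with unadjusted p under 0.05 and none called. Over single livers the mean of the hepatocyte list ran from 1.37 to 2.18, of the lymphoid list from -0.23 to 0.42 and of the erythroid list from 0.24 to 0.89. Their part in the enzyme values was not tested. With array position as a block *Ahcy* differed by 0.26.

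The other 7 enzymes lay closer to 0 for their spread. *Bhmt* differed by 0.24 (SE 0.32, interval -0.41 to 0.90), with LH livers from 1.41 to 3.33, the widest spread of any group. Single mice moved it, to 0.50 without LH replicate 3 and to 0.11 without HH replicate 2, and array position as a block gave 0.033. *Cth* differed by -0.26 (SE 0.25, interval -0.78 to 0.26), and by -0.10 without HH replicate 3. *Mtr* gave 0.15 (SE 0.13), *Mat1a* -0.14 (SE 0.18) and *Mat2a* -0.13 (SE 0.14). With single mice left out these ran from 0.071 to 0.22, from -0.22 to -0.021 and from -0.27 to -0.053. *Cbs* and *Pemt* were closest to 0, at 0.010 (SE 0.10) and -0.0041 (SE 0.11), and the direction of both turned under some settings. The intervals reached past 1.5-fold for *Bhmt*, *Ahcy* and *Cth* and stayed inside it for the other 7. For these 7 a change of 1.5-fold from HH to LH lay outside the interval of the main fit. For those 3 the number of mice did not settle it. These intervals do not cover shifts between processing settings, such as that of *Mtrr* to 0.40 with processed signals.

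**Figure D3:**
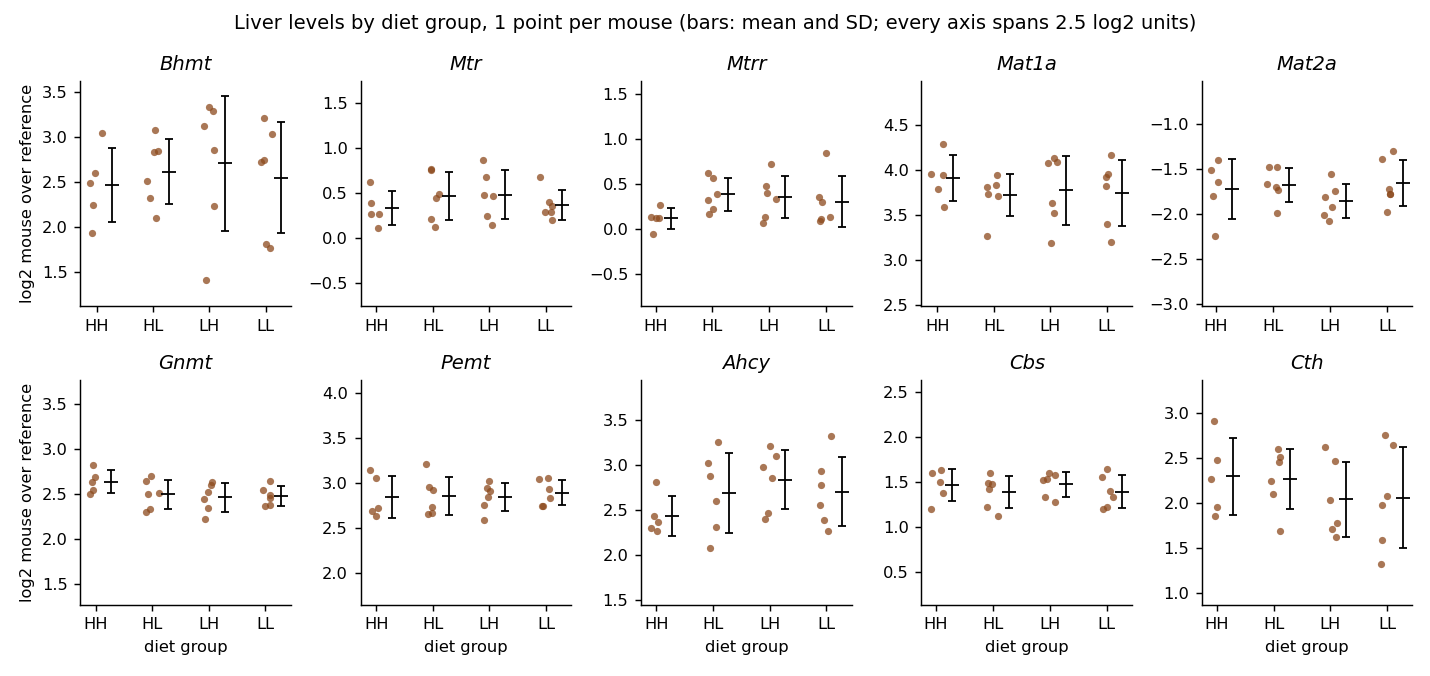
Liver level of each enzyme by diet group, as log2 mouse over reference, 1 point per mouse (5 HH, 6 in each other group) with the mean and SD beside them. Every vertical axis spans 2.5 log2 units, so spreads can be compared by eye. All groups overlap, *Bhmt*, *Ahcy* and *Cth* scatter most, and *Gnmt*, *Pemt* and *Cbs* scatter least.

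When diet L came after weaning, as HL against HH, *Mtrr* alone had an unadjusted limma p under 0.05 in the liver, 1 of 10 against 4.37% of all probes. The HL livers were at 0.23, 0.32, 0.63, 0.57, 0.17 and 0.39, of which 4 lay above every HH liver. The difference was 0.27 (SE 0.13, interval 0.0035 to 0.53, limma adjusted p = 0.952), and 0.14 and 0.12 by the less bright probes. It was 0.17 without the background repair and 0.45 with processed signals. Without the 2 liver arrays with *Xist*, *Mtrr* no longer had an unadjusted limma p under 0.05 in this comparison, where 4.87% of probes did. In LL against HH 0 of 10 passed (3.45% of probes), as in LL against HL (3.08%), LL against LH (6.38%) and LH against HL (1.74%). Pooled over the pup's diet, dam diet L against H gave 0 of 10 (4.16%), offspring diet gave 0 of 10 (1.37%), and their interaction gave 0 of 10 (11.4%). With slide as a replicate block, *Mtrr* had a p under 0.05 in LH, HL and LL against HH and in the interaction, with adjusted p from 0.200 to 0.993. In each of these 4 comparisons that is 1 of 10 enzymes, beside 14.8%, 6.50%, 4.67% and 14.2% of all probes in the same fit. By order of group means *Mtrr*, *Ahcy*, *Bhmt* and *Mtr* were lowest in HH, and *Gnmt*, *Mat1a* and *Cth* were highest in HH. The span of the 4 means ran from 0.048 (*Pemt*, SD within groups 0.19) to 0.40 (*Ahcy*, SD 0.36), and no neighbours in any of these orders were called different.

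In the colon *Mat2a*, the form that was higher in this tissue, was the one enzyme with an unadjusted limma p under 0.05. It was -0.21, -0.00061, -0.13, -0.35, 0.32 and -0.26 in LH and 0.37, 0.19, 0.44, 0.049, -0.19 and 0.17 in HL. The groups overlapped through LH replicate 5 and HL replicate 5. LH minus HL was -0.28 (SE 0.12, interval -0.53 to -0.024, limma adjusted p = 1.00), in a comparison where 2.95% of probes had such a p. Dam diet L minus H was -0.18 (SE 0.086, interval -0.36 to -0.0034, limma adjusted p = 1.00), against 2.11% of probes. Without the 6 colon arrays with *Xist* these became -0.35 and -0.29, with limma adjusted p = 1.00 and 0.968, and LL minus HL, which was -0.16 over all mice, became -0.36 with an unadjusted p of 0.0294 and an adjusted p of 0.997. Without these arrays 3.02%, 4.61% and 4.06% of probes had a p under 0.05 in the 3 comparisons. In each of the remaining colon comparisons 0 of 10 passed: LH, HL and LL against HH (3.24%, 1.46% and 1.72% of probes), LL against HL (1.02%), LL against LH (2.81%), offspring diet (2.03%) and interaction (1.79%). All 10 intervals of each pairwise colon comparison stayed inside 1.5-fold.

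**Figure D4:**
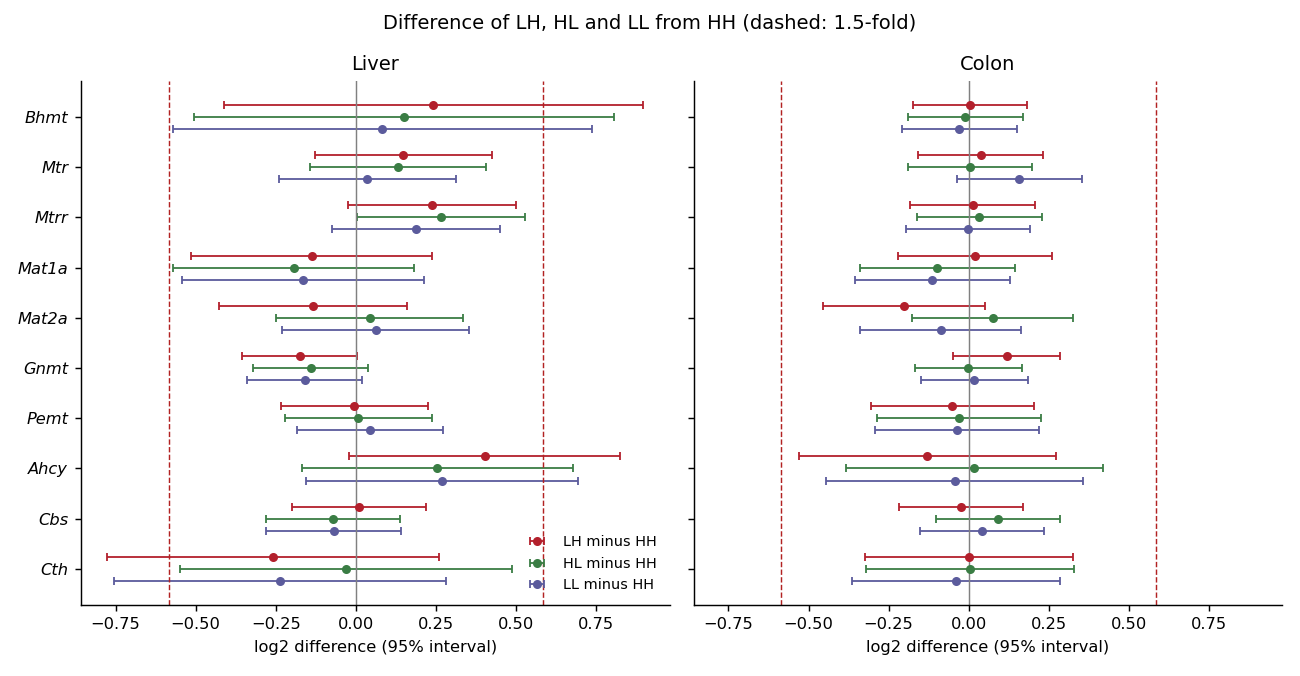
Differences of LH, HL and LL from HH in log2 units with 95% intervals from limma, for liver at left and colon at right. Dashed lines mark 1.5-fold. In liver the intervals of *Bhmt*, *Ahcy* and *Cth* cross the dashed lines and that of *Mtrr* for HL leaves out 0, and in colon all intervals lie inside the lines.

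Whether the diet response differed between tissues was tested directly, in a fit that treated livers and colons as separate mice. For LH against HH, liver minus colon was -0.29 for *Gnmt* (SE 0.12, interval -0.53 to -0.056, limma adjusted p = 0.606), made of -0.18 in liver and 0.12 in colon. This was the one enzyme of 10 with an unadjusted p under 0.05, against 7.54% of probes. *Ahcy* gave 0.53 (SE 0.29, interval -0.058 to 1.12). For HL and LL against HH 0 of 10 passed, against 2.09% and 2.43% of probes. No enzyme was called.

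The wider pathways around the enzymes were no different, with 0 genes called by diet. For LH against HH in liver, unadjusted p under 0.05 was seen for *Sms* (spermine synthase, -0.38, SE 0.12) in salvage and polyamines, and for *Aldh7a1* (0.66, SE 0.24), an aldehyde dehydrogenase that acts on betaine aldehyde, and *Chkb* (choline kinase, -0.27, SE 0.088) in choline use. *Apip* and *Adi1*, next in salvage, gave -0.25 (SE 0.13) and 0.37 (SE 0.19), and the choline kinase *Chka* -0.70 (SE 0.35). Among methyltransferases *Nnmt* (nicotinamide, -0.39, SE 0.17), *Pnmt* (0.29, SE 0.11) and *Carnmt1* (0.30, SE 0.11) had such a p. *Nnmt* was -0.25 without LH replicate 5 and -1.26 by Cy3 alone. In the folate cycle so did *Mthfs* (-0.47, SE 0.14) and *Shmt1* (0.34, SE 0.14). *Lmbrd1*, a lysosomal cobalamin exporter, gave 0.54 (SE 0.15), with *Mmadhc* at 0.16 (SE 0.096) and *Mmut* at -0.071 (SE 0.081) beside it. In sulfur use *Papss1* gave 0.35 (SE 0.15), *Gclm* 0.32 (SE 0.15) and *Gss* -0.21 (SE 0.13). Outside the folate cycle that is 1 of 13 genes of salvage and polyamines, 2 of 11 of choline use, 3 of 10 methyltransferases, 1 of 9 of cobalamin handling and 1 of 14 of sulfur use, beside 12.0% of all probes, with adjusted p of 0.225 or more. Over other settings and single mice left out, *Apip*, *Chka*, *Chkb*, *Carnmt1*, *Gss*, *Mmadhc*, *Mmut* and *Sms* also moved by over 1.5 times at least once. The medians of the 6 lists lay between -0.039 and 0.11.

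The enzymes varied together in part from mouse to mouse. Over the 23 livers, 8 of 45 pairs had a permutation p that stayed under 0.05 after Benjamini-Hochberg adjustment over the pairs, and all 8 were positive. Mice were permuted freely over slides, so the p here and in colon do not allow for likeness within a slide. *Mat1a* joined *Bhmt* (Pearson r = 0.80, p = 2e-05, adjusted 0.000675, Spearman rho = 0.76, p = 7e-05), *Gnmt* (r = 0.74, p = 5e-05, adjusted 0.00075, rho = 0.66, p = 0.00085) and *Cth* (r = 0.69, p = 0.00028, adjusted 0.00315, rho = 0.65, p = 0.00099). Without the 2 mice farthest from the median of the first gene of each pair these r were 0.70, 0.65 and 0.57. *Mtr* went with *Ahcy* (r = 0.80, p = 3e-05, adjusted 0.000675, rho = 0.80, p = 3e-05, r = 0.81 without 2 mice). The 4 further pairs joined *Bhmt* to *Gnmt*, *Ahcy* and *Cth*, and *Ahcy* to *Cbs*, at r from 0.55 to 0.60 and rho from 0.47 to 0.58, and of these only *Bhmt* with *Ahcy* also passed by rho. Without 2 mice *Bhmt* with *Gnmt* and *Bhmt* with *Cth* both fell to 0.38. After subtraction of slide means all 8 kept their sign, with r of 0.53 to 0.89. *Mat2a* passed with no other enzyme in the liver. All levels on an array share its RNA and its reference, and the part of either in these correlations was not tested.

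Over the 24 colons 14 of 45 pairs passed, 11 positive and 3 negative. *Bhmt* with *Mat1a* (r = 0.68, p = 0.00029, adjusted 0.00261, rho = 0.68, p = 0.00044, r = 0.55 without 2 mice) and *Bhmt* with *Gnmt* (r = 0.61, p = 0.0014, adjusted 0.00788, rho = 0.64, p = 0.00093, r = 0.64 without 2 mice) were the pairs that passed in both tissues. *Mat2a* went with *Cbs* (r = 0.75, p = 5e-05, adjusted 0.000563, rho = 0.79, p = 3e-05, r = 0.74 without 2 mice). These 3 pairs were at 0.75, 0.72 and 0.75 within slides. Several others did not hold within slides. The strongest pair, *Ahcy* with *Cth*, fell from r = 0.78 (p = 3e-05, adjusted 0.000563, rho = 0.79, p = 1e-05, the smallest these permutations can give) to 0.078, and *Mtrr* with *Pemt*, *Mtrr* with *Ahcy* and *Pemt* with *Cth* turned from 0.58, 0.51 and 0.58 to -0.14, -0.050 and -0.28. Negative pairs were *Mat1a* with *Cbs* (-0.58), *Mat1a* with *Mtr* (-0.56) and *Pemt* with *Mtr* (-0.53), and all 3 kept their sign within slides. Without 2 mice *Pemt* with *Mtr* was at -0.30, and by rho it did not pass (-0.37, p = 0.0788). Without the 8 arrays with *Xist* 12 pairs passed over both tissues in place of 22.

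**Figure D5:**
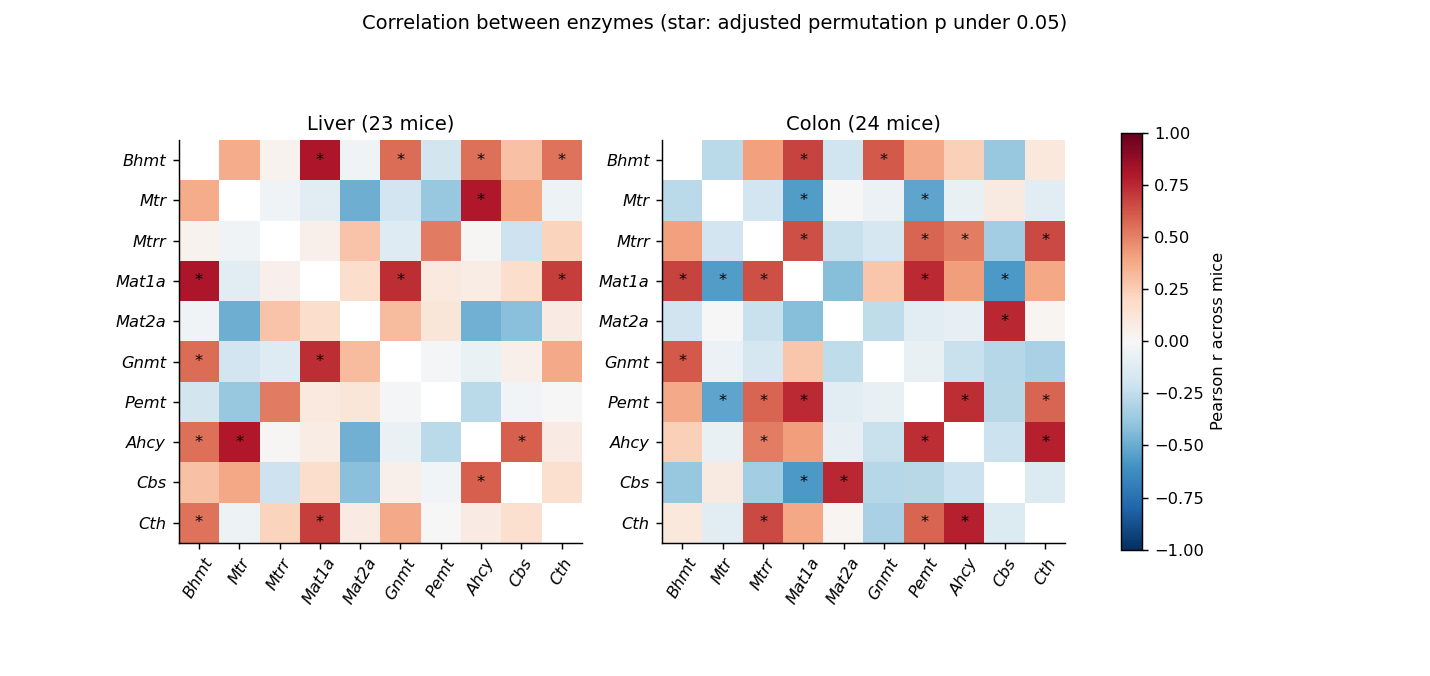
Pearson r between the enzymes across 23 livers (left) and 24 colons (right), from -1 in blue to 1 in red, with a star where the permutation p adjusted over 45 pairs is under 0.05. In liver the stars gather on *Bhmt*, *Mat1a*, *Gnmt*, *Cth* and *Ahcy*. In colon *Mat2a* with *Cbs* and a block of *Mtrr*, *Pemt*, *Ahcy* and *Cth* stand out, and this block weakens once slide means are subtracted.

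Among 18262 other named genes, the ones most like each enzyme across livers were found by Pearson r over the 23 mice, as a description with no p. Enzymes of the set were among the best matches of each other: *Bhmt* had *Mat1a* first (r = 0.80), *Mat1a* had the arsenic methyltransferase *As3mt* (0.84) and then *Bhmt*, and *Gnmt* had *Mat1a* (0.74). *Ahcy* was nearest to the glycolytic enzyme *Eno1* (0.95) and the purine enzyme *Gart* (0.92). *Cth* was nearest to *Gls2* (0.81), a liver glutaminase of periportal hepatocytes, and *Hacd2* (0.80). The second match of *Bhmt* was *Cyp4a12b* (0.80) and that of *Gnmt* was *Zmym3* (0.71). *Mtr* went with *Actr1b* and *Snx9* (both 0.92), *Mtrr* with *Hmox2* (0.84) and *Snw1* (0.83), *Pemt* with *Zc3hc1* (0.82) and *Mrps11* (0.81), and *Cbs* with *Cdhr5* and *Pigq* (both 0.85). *Mat2a* went with *1700029I15Rik* (0.89) and *2310015A10Rik* (0.84). All of these lay between 0.73 and 0.95 after group means were subtracted.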

How the data were processed

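Liver and colon RNA of mice in 4 diet groups was hybridised to Agilent 2-colour arrays, each mouse in Cy3 beside a common Cy5 reference, with no dye swap. The deposited scanner files hold spot intensity values made with Feature Extraction (version 10.10.1.1 per the file headers), and the authors' table holds log2 ratios made with limma in R 3.0.2 per the submitters' processing notes. That table matched loess-normalised ratios without background correction (lowest r over arrays 0.9998) and served as an alternative.

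Here, spot intensities were corrected by normexp (offset 50) and loess in limma 3.58.1 under R 4.3.3. A local background brighter than its spot was first set to the array's median background. Without this repair the SD of an array's ratios fell as low as 0.53, against 0.787 to 0.944 with it. Spots of a probe were averaged, and probes were named through RefSeq accessions of GRCm38.p6 (27050 of 41174). Groups came from the labels. Each tissue was fitted with 4 group means, tissue with all mice, and calls needed a fold over 1.5 with a Benjamini-Hochberg adjusted p under 0.05 over all probes. The scripts were tested on simulated data. Arrays carry no counts, so the number of mice limits the precision, and intervals are 95%.

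The labels give the slide, and within each tissue all arrays of a replicate number share a slide. Deviations from group means correlated at a mean r of 0.165 in liver and 0.379 in colon for arrays of a slide, against -0.033 and -0.075 across slides, so slide was also fitted as a replicate block. Correlations used 100000 permutations of mice over all slides of a tissue, so their p do not allow for this likeness within slides. All 10 enzymes were named, with the 2 genes most like each across livers and the 3 genes of lowest p in LH against HH from each pathway list, of which 1 is not reported here. Members and lists were chosen with earlier results of these data known. Probe sequences were not used here, so binding to close relatives of *Bhmt* and *Ahcy* was not checked.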

Additional observations from a re-analysis of the deposited data

Results flagged for a closer look

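In 4 of 80 groups (10 enzymes, 4 diets, 2 tissues) the highest or lowest mouse stood apart from the rest by Dixon's test, and chance alone flags about 1 in 20 groups. *Mtr* was 0.2538 in colon LH replicate 1, below the 0.45 to 0.54 of the other LH mice, and 1.038 in colon LL replicate 4, above the 0.42 to 0.60 of the other LL mice. *Mtrr* was 0.8419 in liver LL replicate 3, above the 0.086 to 0.36 of the others, and the liver minus colon call of *Mtrr* was lost without this mouse. *Mat1a* was 3.267 in liver HL replicate 5, below the 3.71 to 3.94 of the others.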

How the results depend on the processing

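Of 395 counts recomputed under other settings 393 stayed within 1.5 times the reported count, and of 606 single values 590 kept direction and side of the threshold. The 2 counts that moved were those of correlated pairs given below. Many of the 395 were counts of enzymes called by diet, which were 0 in the main fits and stayed 0, so they say little about stability. Many of the 606 were diet differences not called in the main fits, so their side of the threshold says little either. No diet comparison called an enzyme under any setting or with any mouse left out, and slide as a replicate block gave 0 called enzymes by diet and 9 between tissues, as without it. Leaving out single mice left 8 to 9 enzymes called between liver and colon. Across both tissues, 22 pairs of enzymes passed, but 12 with processed signals and 12 without the arrays with *Xist*, and 17 after slide means were subtracted, a replicate block chosen after seeing the data. The permutations behind the 17 did not allow for the slide means taken out, so their p may be too small. *Mtr* between tissues turned to 0.0071 with processed signals. Tissue differences of other enzymes were recomputed with other settings, less bright probes and single mice left out. *Mat1a* ran from 7.82 to 8.345, *Mat2a* from -2.20 to -1.74, *Gnmt* from 5.97 to 6.27 and *Pemt* from 4.39 to 5.22. *Ahcy* ran from 2.62 to 3.30, *Cbs* from 1.61 to 2.105 and *Cth* from 2.95 to 3.38. All of these ranges reached outside the intervals of the main fit. *Bhmt*, at 6.98 to 7.27, stayed inside. For LH against HH in liver, differences near 0 changed sign. *Pemt* was 0.13 under median centring, 0.017 with the 2 arrays of one HH animal counted as 2 mice and 0.039 without the background repair, and ran from -0.059 to 0.070 with single mice left out. *Cbs* was -0.019 with that pair as 2 mice, -0.013 with its second array only and -0.029 with array position as a block, and ran from -0.055 to 0.053 with single mice left out. *Mmut* was 0.046 under median centring. The cause of these shifts was not tested. Cy3 alone was not run between tissues, since its scale was set within each tissue.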
